A study of Schizosaccharomyces pombe with 32 samples.

Results

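The genes described here are the amino acid biosynthesis genes of the fission yeast Schizosaccharomyces pombe, followed through nitrogen starvation with and without the mating pheromone P-factor. They were chosen by a rule on names, set with earlier results of these data known. A gene entered if its annotated symbol began with arg, aro, asn, cys, his, hom, ilv, leu, lys, met, pro, ser, thr or trp followed by a digit. This gave 67 of the 4819 genes on the arrays, under 14 prefixes. All 67 passed the filter on missing values and were among the 4811 genes tested, and arg4, met1 and trp4 each lacked 1 array value. The largest groups were met with 12 genes, arg with 10, and his and lys with 7 each, followed by trp with 6 and ilv with 4. The prefixes aro, cys, hom, leu, pro and ser held 3 genes each, asn held 2 and thr held 1. The rule also took in 4 genes with functions outside amino acid synthesis. The gene arg82 encodes an inositol polyphosphate kinase, leu5 is named after a mitochondrial coenzyme A carrier of budding yeast, and trp663 and trp1322 encode TRP-like ion channels. The gene leu3 was not analysed here.

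Yeasts make all amino acids of proteins from central carbon compounds and nitrogen that enters through glutamate and glutamine. The carbon skeletons come from few sources: glutamate leads to arginine and proline, aspartate leads to threonine and methionine through homoserine, phosphoglycerate leads to serine, and pyruvate leads to valine and leucine. Fungi build lysine by a route of their own through aminoadipate, and the aromatic amino acids share a trunk that ends in chorismate. In fungi the genes of many of these routes are known to be controlled together, as part of the response to lack of amino acids.

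Each of the 32 arrays compared polyA RNA of starved cells, labelled with Cy5, with the same kind of RNA from that strain in growth, labelled with Cy3. Cells grew in the rich medium YES and were moved to EMM2-N, a minimal medium that lacks nitrogen, and samples were taken at every hour from 1 to 8 h. The strain labelled L972 was starved without P-factor, and the strain labelled CRL672 was starved in the presence of synthetic P-factor at 0.5 ug per ml, with 2 arrays for each hour of each condition. What the strain adds and what P-factor adds cannot be told apart, and the labels give no genotype beyond the strain names. By their array numbers the arrays make up 4 series of 8, here named replicates 1 and 2 of a condition. The labels do not say that the series came from separate cultures, so the p-values measure the spread between these samples, which may be technical. The values below are log2 ratios, starved against growing, set against the median gene of the same array, or differences between them. The labels do not give the base of the logarithm, which was taken as 2 by convention, and the folds rest on this. A ± is a standard error, and a gene is called higher or lower where its Benjamini-Hochberg adjusted p from the limma fit over all genes is under 0.05. In RNA from whole cultures, fewer cells of a type and less RNA per cell cannot be told apart. Reference RNA was on Cy3 on every array, so a dye bias of a gene remains in its ratio to growing cells.

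Across genes, which are not independent replicates, arrays of the same hour correlated at 0.84 to 0.901 (no P-factor) and 0.865 to 0.943 (P-factor). All 5 starvation genes checked, among them the protease gene isp6, were higher than in growth in both conditions. Of 6 measured genes specific to M cells, the mating type that senses P-factor, 5 were higher without P-factor and 6 with it, with median ratios of 3.30 and 4.88. Of 4 measured genes listed for P cells, 2 were higher and 1 lower without P-factor, and 3 were higher with it. Their median ratios were 0.39 and 0.72, between map3 at -0.61 and -0.40 and map1 at 1.28 and 1.79. The replicate series without P-factor stood apart from each other for the amino acid genes: the median of the genes' 8-h averages was -0.78 in replicate 1 and -0.38 in replicate 2. The same medians were -0.65 and -0.58 in the series with P-factor. Each result was computed again without each series where the remaining arrays had a value for every hour. The averages that moved by over 1.5 times are given by series.

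The first comparison asked how starved cells differed from growing cells over the whole course. Most amino acid biosynthesis genes were below their level in growth. Without P-factor 42 of the 67 genes (62.7%) were lower on average over 1 to 8 h, against 35.3% of all genes tested, and 12 were higher, against 33.7%. With P-factor 42 were lower, against 32.8% of all genes, and 7 were higher, against 33.9%. The median ratio of the 67 genes was -0.50 without P-factor and -0.67 with it, while the medians over all genes were -0.003 and 0.023. The exception among the larger groups was arginine, with 6 of 10 arg genes higher without P-factor and 5 with it.

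Of the 67 genes, 40 were lower in both conditions (59.7%), against 29.2% of all genes, and 7 were higher in both, against 28.5%. The 7 were arg4, arg5, arg7, arg12, arg41, cys12 and met3. Leaving out the 4 genes with functions outside amino acid synthesis gave 12 higher and 40 lower without P-factor, and 7 higher and 40 lower with it. In the individual series, 42 genes had an average below 0 in all 4 series and 9 an average above 0 in all 4. The same counts were not made over all genes. Without replicate 1 of P-factor the higher calls of arg5, cys12 and met3 with P-factor were lost.

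Some of the smaller averages rested on 1 series. Without replicate 1 of the condition without P-factor, the calls of asn1, cys2, cys12, his7, hom6, lys1, met11, met26, pro2, ser1, trp2 and trp4 in that condition were lost. Without its replicate 2 that of leu5 was lost, and without either P-factor series those of his7, hom6, lys1, met6 and ser1. With P-factor, cys12, hom6, lys3, met17, ser3 and trp2 lost their calls without either P-factor series. The calls of arg5, cys2, met1, met3 and met8 were lost without its replicate 1, and those of asn1 and leu5 without its replicate 2. The P-factor averages of arg4 and trp4 could not be fitted without replicate 2 of P-factor, since its replicate 1 lacks an hour of each gene. Leaving out one series gives the average of the other, and without P-factor this moved the average by over 1.5 times for the genes that follow, replicate 1 first. On the side above growth they were 0.47 and 1.71 for arg4, 0.33 and 1.22 for arg5, 0.42 and 1.04 for aro1 and 0.73 and 0.28 for cys12. Below growth in replicate 1 and near growth in replicate 2 were asn1 at -0.99 and -0.01, lys1 at -0.81 and -0.047, met26 at -0.76 and -0.027, hom6 at -0.52 and -0.08, ser1 at -0.72 and 0.018 and trp2 at -0.78 and 0.016. Below growth in both were lys3 at -1.38 and -0.38, met17 at -2.44 and -0.66, ser3 at -2.66 and -0.93, leu1 at -1.37 and -0.66, trp1 at -0.92 and -0.34, cys2 at -1.34 and -0.54 and leu5 at -0.26 and -0.61. With P-factor the genes of this kind were met1 at -1.58 and -0.33, cys2 at -1.22 and -0.33, cys12 at 0.49 and 0.17, leu5 at -0.23 and -0.53 and trp4 at -0.084 and -0.49, where replicate 1 of trp4 lacks 1 array.

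**Figure D1:**
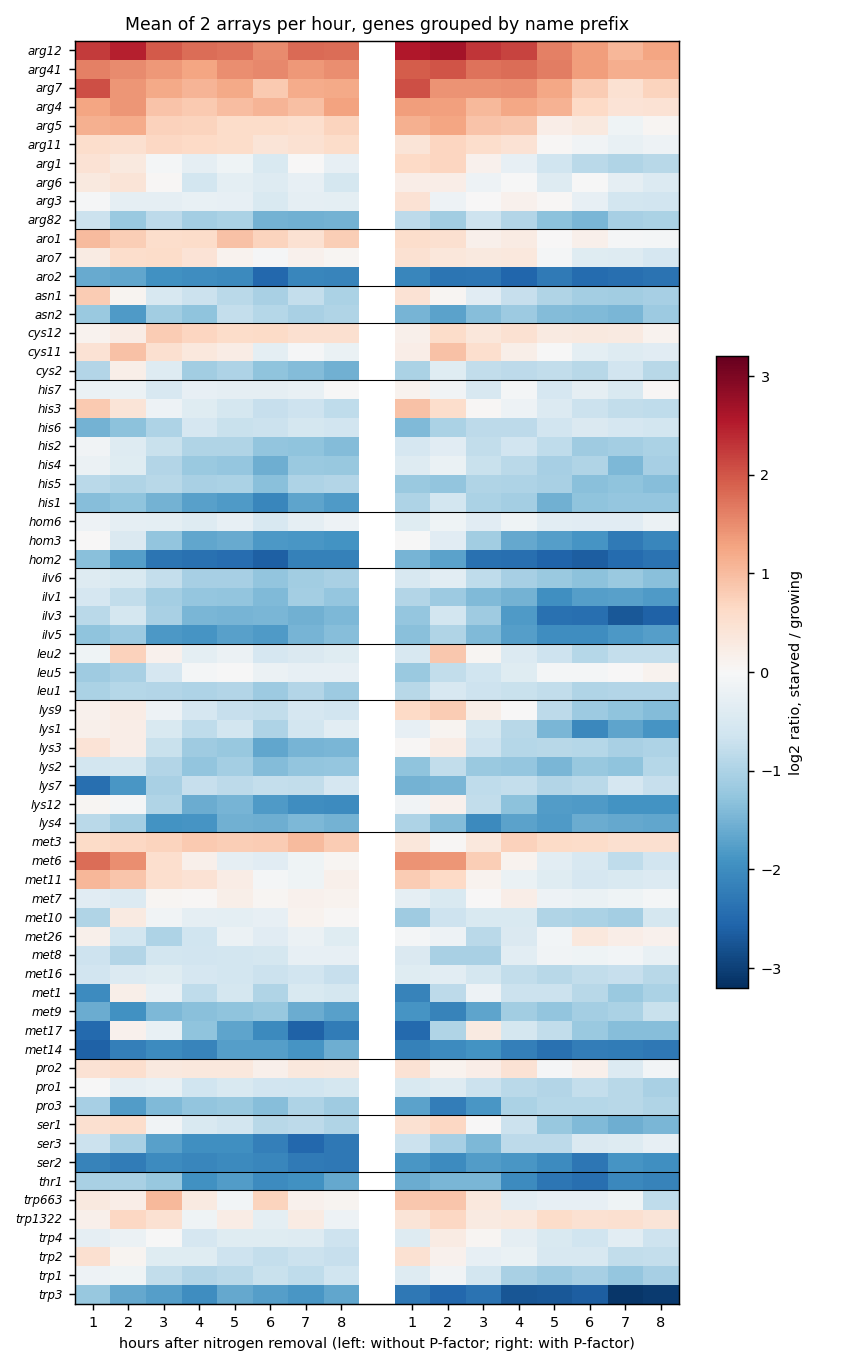
Mean log2 ratio of starved over growing cells for each of the 67 genes (rows, grouped by name prefix) at each hour after nitrogen removal (columns), without P-factor on the left and with P-factor on the right, as the mean of 2 arrays (1 for arg4, met1 and trp4 where a value was missing). Red is above and blue below the level in growth; arg12, arg41 and arg7 were above it at every hour, and hom2, ser2, aro2 and met14 below it at every hour.

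The arginine route runs from glutamate through acetylated intermediates to ornithine, and from ornithine through citrulline and argininosuccinate to arginine. The genes of its last steps stood above growth. The gene arg12, for argininosuccinate synthase, was the highest of the 67 in both conditions, at 1.91 ± 0.16 (3.76-fold, adjusted p = 6.36e-10) without P-factor and 1.87 ± 0.16 (3.65-fold, adjusted p = 9.45e-10) with it. Without P-factor, arg12 read 2.03, 2.08, 1.21, 1.17, 1.22, 0.94, 1.19 and 1.29 in replicate 1, and 2.42, 2.88, 2.73, 2.40, 2.23, 2.07, 2.42 and 2.30 in replicate 2, in the order of the hours. With P-factor, arg12 read 2.77, 2.72, 2.36, 2.07, 1.53, 1.24, 1.02 and 1.38 in replicate 1, and 2.33, 2.61, 2.23, 2.25, 1.71, 1.43, 1.12 and 1.14 in replicate 2. All 32 values lay above 0. The arrays of replicate 2 without P-factor were the higher ones of their hour throughout, while the P-factor series lay close together and came down from 2 h on.

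Argininosuccinate lyase, the last enzyme of the route, is encoded by arg7, whose average was 1.28 ± 0.22, adjusted p = 2.68e-05 without P-factor and 1.21 ± 0.22, adjusted p = 5.77e-05 with it. Its 16 values ran from 0.69 to 2.26 with a median of 1.18 without P-factor and from 0.49 to 3.03 with a median of 1.16 with it, so it was above growth on every array. The gene arg41 was also above growth on all arrays, from 1.07 to 1.92 with a median of 1.37 without P-factor and from 0.85 to 2.43 with a median of 1.46 with it, and averaged 1.46 ± 0.14 and 1.60 ± 0.14. Carbamoyl phosphate for the step from ornithine to citrulline is made by the products of arg5 and arg4, the small and large subunits of carbamoyl phosphate synthase. The averages of arg4 were 1.09 ± 0.20 and 0.95 ± 0.21, and those of arg5 0.78 ± 0.16 and 0.58 ± 0.16, all called higher. The arrays of arg4 ranged from 0.025 to 2.07 with a median of 1.01 without P-factor, where replicate 2 was the higher one at every hour, and from 0.043 to 1.54 with a median of 0.98 with it.

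The other arg genes were not higher than growth in both conditions. For the genes of acetylglutamate synthase (arg6), acetylornithine aminotransferase (arg1) and ornithine carbamoyltransferase (arg3), neither average passed the test. Their averages without P-factor were -0.17 ± 0.14, -0.053 ± 0.15 and -0.28 ± 0.16, and with P-factor -0.11 ± 0.14, -0.27 ± 0.15 and -0.12 ± 0.16. The gene arg11, for the enzyme that phosphorylates and reduces acetylglutamate, was higher without P-factor at 0.56 ± 0.11, adjusted p = 0.000162, with all 16 arrays between 0.28 and 0.79. With P-factor it averaged 0.21 ± 0.11, adjusted p = 0.11, and 4 of its 16 arrays were below 0. The kinase gene arg82, which shares only the prefix, was lower in both conditions at -1.17 ± 0.18 and -1.05 ± 0.18. Whether probes of related genes, such as arg7 and arg41, pick up each other's RNA was not tested.

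**Figure D2:**
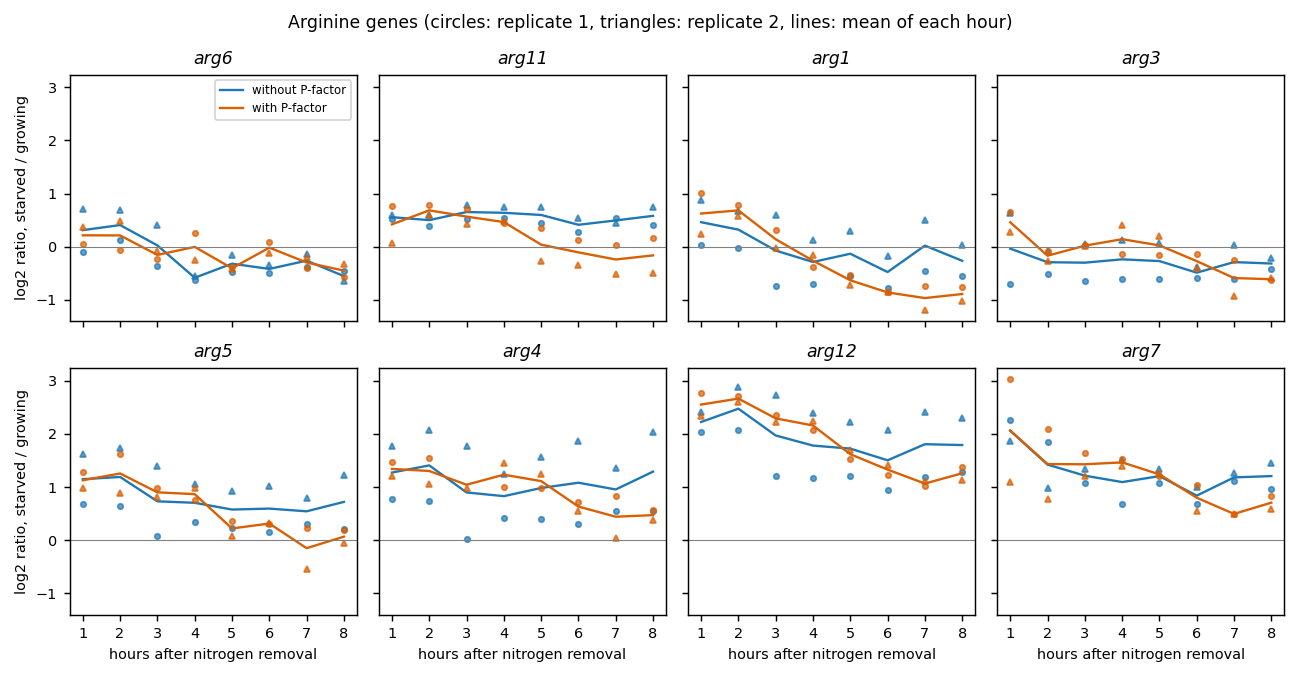
Log2 ratio of starved over growing cells against hours after nitrogen removal for 8 arginine genes in the order of the route, with P-factor in orange and without it in blue. Circles are replicate 1, triangles replicate 2 and lines the mean of each hour; arg5, arg4, arg12 and arg7 lie mostly above 0 while arg6, arg1 and arg3 lie around it, and the orange lines of arg11, arg1, arg5 and arg12 end below the blue ones.

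The genes from aspartate to homoserine and threonine were all lower on average in both conditions. The gene hom2, for aspartate-semialdehyde dehydrogenase, had the lowest average of the 67 without P-factor, at -2.15 ± 0.13 (4.44-fold lower, adjusted p = 1.39e-12), and averaged -2.25 ± 0.13 with P-factor (4.76-fold lower, adjusted p = 6.7e-13). Without P-factor, hom2 read -1.44, -1.91, -2.56, -2.43, -2.62, -2.44, -2.26 and -2.17 in replicate 1, and -1.24, -1.60, -2.11, -2.35, -2.27, -2.77, -2.05 and -2.17 in replicate 2. With P-factor, hom2 read -1.37, -1.58, -2.51, -2.32, -2.81, -2.92, -2.71 and -2.45 in replicate 1, and -1.59, -1.86, -2.26, -2.49, -2.34, -2.35, -2.22 and -2.26 in replicate 2. Both conditions and all series showed the same course, a ratio already below -1 at 1 h and below -2 from 3 h on.

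Aspartate kinase, the enzyme before hom2's, is encoded by hom3, which averaged -1.33 ± 0.15 and -1.39 ± 0.15. Unlike hom2 it began near the level of growth, with values at 1 h of -0.55 and 0.56 without P-factor and -0.21 and 0.20 with it. The homoserine dehydrogenase gene hom6, the last of the 3, was lower by a small amount, -0.30 ± 0.12, adjusted p = 0.0328 and -0.29 ± 0.12, adjusted p = 0.0427. The homoserine kinase gene thr1 averaged -1.58 ± 0.18 and -1.93 ± 0.18, and its 32 values all lay below 0, from -2.39 to -0.68 with a median of -1.65 and from -2.50 to -0.92 with a median of -2.01 in the same order.

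Genes of sulfur assimilation and methionine did not move as a block. Of 12 met genes, 6 were lower and 3 higher without P-factor, against 35.3% and 33.7% of all genes. With P-factor 7 were lower and 1 higher, against 32.8% and 33.9%. Adenylylsulfate kinase, an early step in the reduction of sulfate, is encoded by met14, which was 3.95-fold lower without P-factor (-1.98 ± 0.14, adjusted p = 2.77e-11) and 4.52-fold lower with it (-2.18 ± 0.14, adjusted p = 5.95e-12). The arrays of met14 ran from -2.58 to -1.45 with a median of -1.93 without P-factor and from -2.87 to -1.92 with a median of -2.13 with it, with no array near the level of growth. The gene met16, for the next enzyme, PAPS reductase, was also lower, but by less, -0.57 ± 0.10 and -0.67 ± 0.10. For met10, a subunit of sulfite reductase, the average was -0.19 ± 0.19, adjusted p = 0.374 without P-factor and -0.80 ± 0.19, adjusted p = 0.000622 with it. The gene met3 was higher in both conditions at 0.78 ± 0.13 and 0.46 ± 0.13, and 31 of its 32 arrays were above 0.

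Homoserine O-acetyltransferase, which commits homoserine to methionine, is encoded by met6, and its average of 0.41 ± 0.15, adjusted p = 0.0198 without P-factor and 0.18 ± 0.15, adjusted p = 0.288 with it does not show its course. Without P-factor, met6 read 1.83, 1.34, 0.21, 0.42, -0.41, 0.069, 0.14 and 0.23 in replicate 1, and 1.76, 1.63, 0.89, -0.077, -0.18, -0.79, -0.43 and -0.11 in replicate 2. With P-factor, met6 read 1.33, 1.52, 0.82, -0.002, -0.53, -0.56, -0.70 and -0.65 in replicate 1, and 1.54, 1.32, 0.77, 0.24, -0.16, -0.49, -0.94 and -0.57 in replicate 2. In all 4 series it stood high at 1 and 2 h and had come down to near or below growth by 5 h. The gene met17, whose enzyme joins sulfide to O-acetylhomoserine, was among the most variable of the 67. Without P-factor, met17 read -3.62, -1.66, -1.48, -1.80, -2.39, -2.91, -2.98 and -2.66 in replicate 1, and -1.35, 1.94, 0.99, -0.75, -0.97, -1.16, -2.20 and -1.81 in replicate 2. With P-factor, met17 read -2.56, -1.85, -0.75, -0.48, -0.94, -1.40, -1.46 and -1.73 in replicate 1, and -2.42, -0.076, 1.33, -0.67, -0.62, -0.97, -1.25 and -0.99 in replicate 2. Every series went up from 1 h to a highest value between 2 and 4 h, and the level of that peak differed widely between the series of a condition. Its averages were -1.55 ± 0.36, adjusted p = 0.000627 and -1.05 ± 0.36, adjusted p = 0.0135. The 2 genes for methylenetetrahydrofolate reductase, which supplies the methyl group, went opposite ways without P-factor: met9 was lower at -1.52 ± 0.15 and met11 higher at 0.39 ± 0.12. With P-factor they averaged -1.37 ± 0.15 and -0.062 ± 0.12, the latter not called. The methionine synthase gene met26 averaged -0.39 ± 0.15, adjusted p = 0.0232 and -0.12 ± 0.15, adjusted p = 0.493. Of the remaining met genes, met8 was lower in both conditions, met1 with P-factor, and met7 in neither. Their averages were -0.56 ± 0.11, -0.68 ± 0.32 and -0.022 ± 0.13 without P-factor and -0.43 ± 0.11, -0.95 ± 0.31 and -0.14 ± 0.13 with it. The part of probes that pick up RNA of a related gene in the values of met9 and met11 was not tested.

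Among the lysine genes 6 of 7 were lower in each condition, with median averages of -1.04 and -1.09. Of all genes, 35.3% were lower without P-factor and 32.8% with it. Homocitrate synthase, which opens the route, is encoded by lys4, the lysine gene with the lowest average, -1.48 ± 0.18 and -1.61 ± 0.18. It was already low at 1 h, from -0.53 to -1.38 over the 4 series. The genes of the next steps, lys2 for homoaconitase and lys12 for homoisocitrate dehydrogenase, averaged -1.04 ± 0.14 and -1.23 ± 0.17 without P-factor and -1.17 ± 0.14 and -1.19 ± 0.17 with it. Aminoadipate reductase is encoded by lys1, which averaged -0.43 ± 0.17, adjusted p = 0.0294 and -1.09 ± 0.17, adjusted p = 5.72e-06. The gene lys7, for the enzyme that attaches the phosphopantetheine group to this reductase, averaged -1.12 ± 0.17 and -0.96 ± 0.17. Of the genes of the last 2 steps, which form and cleave saccharopine, lys3 was lower at -0.88 ± 0.17 and -0.64 ± 0.17. The other, lys9, did not pass the test in either condition, at -0.37 ± 0.17, adjusted p = 0.0574 and -0.38 ± 0.17, adjusted p = 0.0576.

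All 4 genes of the shared route to isoleucine and valine were lower in both conditions. They encode the catalytic (ilv1) and regulatory (ilv6) subunits of acetolactate synthase, the reductoisomerase (ilv5) and the dihydroxyacid dehydratase (ilv3). Without P-factor their averages were -1.08 ± 0.16, -0.90 ± 0.12, -1.57 ± 0.15 and -1.23 ± 0.14, and with it -1.54 ± 0.16, -0.97 ± 0.12, -1.63 ± 0.15 and -1.86 ± 0.14. Every array value of the 4 genes was below 0. Of the leucine genes, leu1, for isopropylmalate dehydrogenase, was lower at -1.01 ± 0.13 and -0.80 ± 0.13, while leu2, for isopropylmalate dehydratase, averaged -0.15 ± 0.18, adjusted p = 0.491 and -0.39 ± 0.18, adjusted p = 0.0667. The carrier gene leu5 was lower at -0.44 ± 0.12 and -0.38 ± 0.12.

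Serine is made from phosphoglycerate by the products of ser3, ser1 and ser2, and all 3 genes were lower in both conditions. The lowest was ser2, for phosphoserine phosphatase, at -2.14 ± 0.12 (4.41-fold lower, adjusted p = 7.24e-13) and -1.97 ± 0.12 (3.91-fold lower). Its 32 values stayed within narrow limits, from -2.43 to -1.79 with a median of -2.21 without P-factor and from -2.39 to -1.53 with a median of -1.95 with it, and its late minus early differences of -0.078 ± 0.12 and -0.18 ± 0.12 were not called. The phosphoglycerate dehydrogenase gene ser3 averaged -1.80 ± 0.25, adjusted p = 1.06e-06 and -0.75 ± 0.25, adjusted p = 0.0107, and the phosphoserine aminotransferase gene ser1 -0.35 ± 0.14, adjusted p = 0.028 and -0.65 ± 0.14, adjusted p = 0.000272. Without replicate 1 of the condition without P-factor the adjusted p of ser1 there was 0.891. Of the cysteine synthase genes, cys12 was higher at 0.51 ± 0.14, adjusted p = 0.00293 and 0.33 ± 0.14, adjusted p = 0.0461, and cys11 averaged 0.24 ± 0.14 and 0.093 ± 0.14, not called. The gene cys2 was lower at -0.94 ± 0.25 and -0.77 ± 0.25.

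The aromatic trunk was split. The gene aro2, for chorismate synthase, was among the 4 lowest genes in both conditions at -2.00 ± 0.18 (4-fold lower, adjusted p = 1.14e-09) and -2.35 ± 0.18 (5.08-fold lower, adjusted p = 7.79e-11). Its arrays ran from -2.55 to -1.37 with a median of -1.82 without P-factor and from -2.86 to -1.66 with a median of -2.35 with it. The gene aro1, for the enzyme that carries 5 activities before chorismate synthase, was higher without P-factor at 0.73 ± 0.15, adjusted p = 0.000218 with all 16 arrays above 0, and averaged 0.20 ± 0.15, adjusted p = 0.261 with P-factor. The chorismate mutase gene aro7 averaged 0.27 ± 0.13 and 0.012 ± 0.13, not called.

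On the branch to tryptophan, trp3, for the large component of anthranilate synthase, was lower at -1.69 ± 0.14 (3.22-fold, adjusted p = 3.94e-10) without P-factor. With P-factor it was the lowest of the 67 genes, at -2.68 ± 0.14 (6.4-fold lower, adjusted p = 2.73e-13). Without P-factor, trp3 read -1.26, -1.54, -1.87, -1.94, -1.70, -1.75, -1.69 and -1.63 in replicate 1, and -1.14, -1.74, -1.67, -2.04, -1.56, -1.79, -2.02 and -1.69 in replicate 2. With P-factor, trp3 read -1.76, -2.01, -2.40, -2.83, -2.69, -2.48, -3.01 and -2.92 in replicate 1, and -2.80, -3.01, -2.32, -2.64, -2.74, -2.77, -3.24 and -3.22 in replicate 2. The P-factor arrays of 1 and 2 h in replicate 1 lay within the range of the arrays without P-factor, and all other P-factor arrays lay below it. The other genes of the branch were lower by less: trp1, whose product carries several activities, averaged -0.63 ± 0.13 and -0.83 ± 0.13, the phosphoribosyltransferase gene trp4 -0.36 ± 0.13 and -0.32 ± 0.14, and the tryptophan synthase gene trp2 -0.38 ± 0.13 and -0.30 ± 0.13. The average of trp2 without P-factor turned to 0.016 (adjusted p = 0.905) without replicate 1 of that condition. Neither channel gene was called, with averages of 0.34 and 0.15 without P-factor and 0.035 and 0.46 with it.

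Of 7 histidine genes, 6 were lower without P-factor and 5 with it, against 35.3% and 32.8% of all genes. None was higher, against 33.7% and 33.9%. The lowest without P-factor was his1, for the ATP phosphoribosyltransferase that opens the route, at -1.66 ± 0.13, against -1.13 ± 0.13 with P-factor. The lowest with P-factor was his5, for imidazoleglycerol-phosphate dehydratase, at -1.18 ± 0.12, against -1.004 ± 0.12 without. The histidinol dehydrogenase gene his2, at the end of the route, averaged -0.89 ± 0.12 and -0.80 ± 0.12. The genes his4 and his6 averaged -0.99 ± 0.14 and -0.87 ± 0.12 without P-factor and -0.84 ± 0.14 and -0.79 ± 0.12 with it. The gene his7 was called lower without P-factor alone, at -0.25 ± 0.11, adjusted p = 0.045 against -0.23 ± 0.11, adjusted p = 0.0576. The histidinol-phosphate aminotransferase gene his3 was not called in either condition, at -0.26 ± 0.16 and -0.17 ± 0.16.

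Both asn genes were lower in both conditions. The asparagine synthetase gene asn1 averaged -0.50 ± 0.16 and -0.61 ± 0.16, and asn2 averaged -1.13 ± 0.14 and -1.39 ± 0.14. On the route from glutamate to proline, the glutamate kinase gene pro2 was higher without P-factor at 0.35 ± 0.14, adjusted p = 0.0346 and averaged 0.10 ± 0.14, adjusted p = 0.541 with it. The genes of the next steps were lower: pro1, for glutamate semialdehyde dehydrogenase, averaged -0.44 ± 0.11 and -0.76 ± 0.11, and pro3, for pyrroline-carboxylate reductase, -1.28 ± 0.17 and -1.31 ± 0.17.

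The second comparison asked how the ratios moved during starvation, from the mean of 1 to 3 h (early) to the mean of 6 to 8 h (late). In both conditions most of the called genes went down. Without P-factor 34 of the 67 genes (50.7%) were lower late than early, against 18.3% of all genes, and 7 were higher, against 24%. With P-factor 40 were lower (59.7%), against 19.8% of all genes, and 8 were higher, against 33.7%. The median late minus early difference of the 67 was -0.42 without P-factor and -0.52 with it, and that over all genes 0.046 and 0.11. In both conditions 28 genes were lower late (41.8%), against 9.1% of all genes, and 4 were higher late, against 15.3%.

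The split over all genes depended on the centring of the arrays. With the deposited values and no centring, 982 genes were higher and 1063 lower late without P-factor, in place of 1153 and 881. With P-factor it was 1125 and 1480 in place of 1623 and 953, and the median over all genes was -0.08 in place of 0.11. The amino acid genes then split 5 to 37 without P-factor and 6 to 47 with it, with medians of -0.49 and -0.71. Without replicate 2 of the condition without P-factor, 16 genes were lower late and 4 higher in that condition, against 9.57% and 15.5% of all genes. Without its replicate 1 the numbers were 27 and 2, against 9.6% and 12.1%.

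The hourly values show the same course. At 1 h without P-factor 14 genes were higher than in growth, against 26.4% of all genes, and 26 lower, against 28.2%. At 8 h there were 9 higher, against 27.1%, and 37 lower, against 27.7%. In between, from 2 to 7 h, the lower genes numbered 26, 33, 37, 37, 40 and 36, against 31.1%, 27.4%, 27%, 26.3%, 28.7% and 28.1% of all genes. The higher genes of those hours numbered 15, 14, 10, 9, 9 and 7, against 27.8%, 27.3%, 27.4%, 25.5%, 25.9% and 26%. The number of lower genes thus went up at 3 h and changed little after 4 h. With P-factor 14 were higher, against 26.4%, and 30 lower, against 29.5%, at 1 h. From 2 to 7 h the lower genes numbered 26, 34, 32, 38, 40 and 43, against 31.6%, 29.4%, 25.1%, 26.9%, 25.6% and 23.3%. The higher ones numbered 14, 8, 7, 5, 3 and 3, against 25.8%, 24.4%, 28.7%, 26.2%, 28.2% and 26.9%. At 8 h there were 3 higher, against 29.9%, and 43 lower, against 25.2%. The 3 called higher at 8 h with P-factor were arg12, arg41 and met3. The median ratio of the 67 went from -0.17 at 1 h to -0.64 at 8 h without P-factor and from -0.41 to -0.89 with it, where it was highest at 2 h with -0.21. The highest of the 8 hourly means was that of 1 or 2 h for 49 genes without P-factor (73.1%) and for 47 with it (70.1%), against 37% and 32.6% of all genes.

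**Figure D3:**
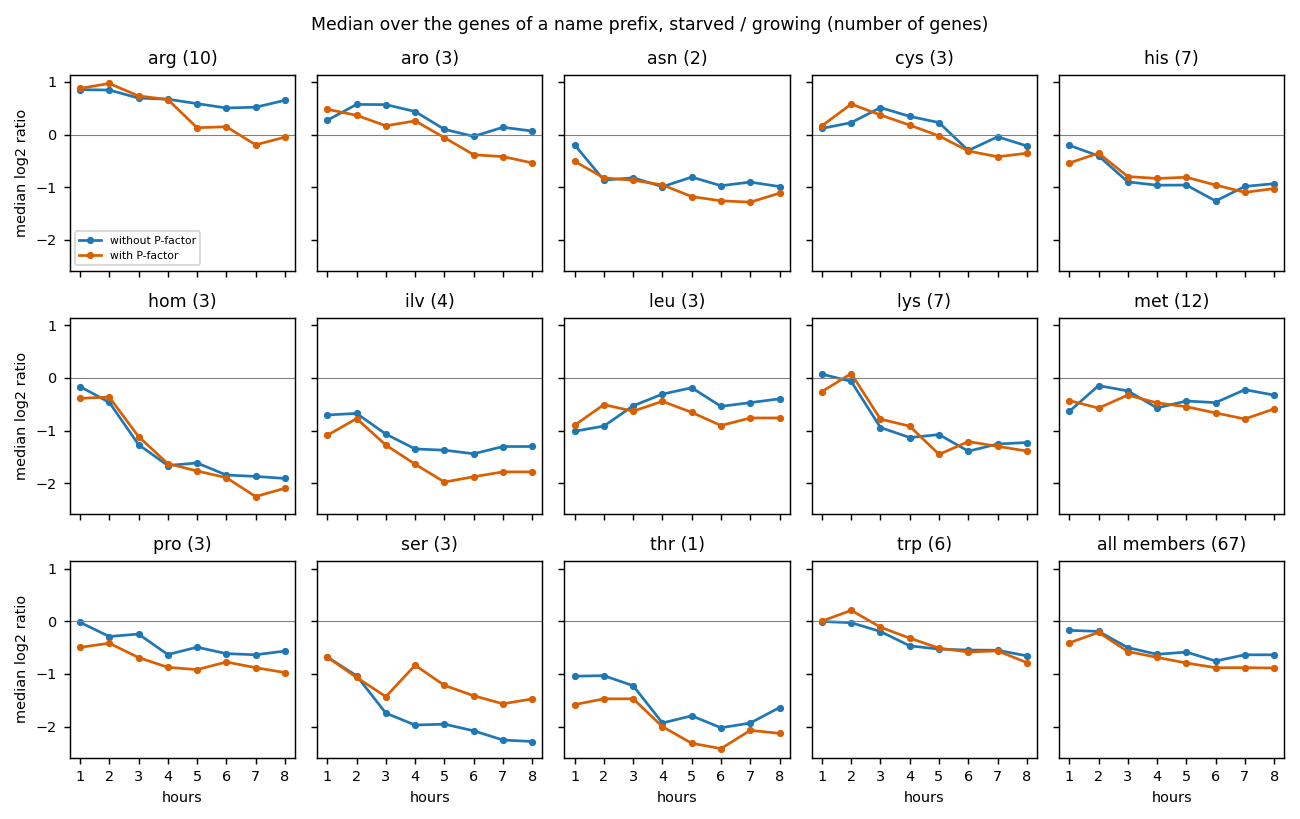
Median log2 ratio of starved over growing cells over the genes of each name prefix (number of genes in brackets) against hours after nitrogen removal, without P-factor in blue and with it in orange, with the median of all 67 genes in the last panel. The hom and lys lines begin between -0.39 and 0.072 at 1 h and end between -1.23 and -2.10 at 8 h, and the arg line stays above 0.5 without P-factor while it ends near 0 with it.

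Of 7 lysine genes 5 were lower late and 1 higher without P-factor, against 18.3% and 24% of all genes. With P-factor 4 were lower and 1 higher, against 19.8% and 33.7%. Without P-factor the largest decreases were those of lys12, at -1.62 ± 0.17 (adjusted p = 1.71e-07), and lys3, at -1.52 ± 0.17 (adjusted p = 2.7e-07). Without P-factor, lys12 read -0.15, -0.42, -1.50, -1.93, -1.81, -2.27, -2.07 and -2.40 in replicate 1, and 0.29, 0.29, -0.40, -1.26, -1.16, -1.34, -1.90 and -1.62 in replicate 2. With P-factor, lys12 read 0.17, 0.43, -0.72, -1.51, -2.25, -1.92, -2.05 and -2.21 in replicate 1, and -0.37, -0.14, -0.84, -1.12, -1.35, -1.72, -1.77 and -1.63 in replicate 2. All series began within 0.5 of the level in growth and ended below -1.5, and the late minus early difference with P-factor was -1.64 ± 0.17. For lys3 the values were -1.38 to 1.02 in the early and -2.02 to -1.18 in the late arrays without P-factor, and -0.69 to 0.37 in the early and -1.13 to -0.80 in the late arrays with it. Early and late values overlapped without P-factor, where replicate 1 was the lower one at every hour, and did not overlap with it.

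Next came met6 and met17 without P-factor, at -1.42 ± 0.15 and -1.42 ± 0.36. The late minus early differences of met17 in the series without P-factor were -0.60 and -2.25, replicate 1 first, its call was lost without replicate 2, and with P-factor its difference was -0.24 ± 0.36, adjusted p = 0.59. With P-factor the largest decreases were those of ser1 (-1.88 ± 0.14, adjusted p = 2.05e-10), met6 (-1.87 ± 0.15, adjusted p = 7.87e-10), lys9 (-1.82 ± 0.17, adjusted p = 9.81e-09) and lys1 (-1.64 ± 0.17, adjusted p = 3.99e-08). Without P-factor, ser1 read 0.12, 0.13, -0.78, -0.93, -0.93, -1.12, -1.0 and -1.29 in replicate 1, and 0.90, 1.0, 0.53, -0.057, -0.23, -0.67, -0.67 and -0.65 in replicate 2. With P-factor, ser1 read 0.42, 0.70, 0.10, -0.58, -1.42, -1.50, -1.47 and -1.49 in replicate 1, and 0.56, 0.63, -0.068, -0.79, -1.01, -1.33, -1.66 and -1.46 in replicate 2. It was above growth at 1 and 2 h on all 8 arrays of those hours and below it from 4 h on in every series.

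Aspartate kinase (hom3), histidinol-phosphate aminotransferase (his3) and asparagine synthetase (asn1) genes went down in both conditions as well. The late minus early difference of hom3 was -1.30 ± 0.15 without P-factor and -1.59 ± 0.15 with it, and that of his3 was -1.10 ± 0.16 and -1.28 ± 0.16. For asn1 it was -1.07 ± 0.16 and -1.14 ± 0.16. Genes called higher than growth at 1 h and lower at 8 h numbered 4 without P-factor, namely asn1, his3, ser1 and trp2, against 0.873% of all genes. With P-factor they numbered 7, namely arg1, aro7, his3, lys9, met6, met11 and trp2, against 0.831%.

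The genes that rose most had early values below growth. Without P-factor these were led by lys7 (1.08 ± 0.17, adjusted p = 2.29e-05), leu5 (0.66 ± 0.12), his6 (0.65 ± 0.12) and met14 (0.52 ± 0.14). Without P-factor, lys7 read -2.78, -1.55, -0.79, -0.58, -0.80, -0.33, -0.54 and -0.28 in replicate 1, and -2.06, -2.17, -1.30, -0.89, -0.88, -1.18, -1.01 and -0.80 in replicate 2. With P-factor, lys7 read -1.68, -1.61, -0.52, -0.85, -1.24, -0.82, -0.25 and -0.76 in replicate 1, and -1.33, -1.33, -1.10, -0.70, -0.66, -0.92, -0.81 and -0.72 in replicate 2. Its values were lowest at 1 and 2 h in all series and stayed below growth to the end. The values of his6 were -1.79 to -0.84 in the early and -0.70 to -0.41 in the late arrays without P-factor and -1.57 to -0.73 in the early and -0.70 to -0.40 in the late arrays with it, and overlapped in neither condition. The calls of his6 and met14 without P-factor were lost without replicate 1 of that condition, with differences by series of 0.92 and 0.39 and of 0.71 and 0.32, and that of lys7 with P-factor without its replicate 1. With P-factor the genes that rose were led by pro3 (1.01 ± 0.17, adjusted p = 3.13e-05), met9 (0.97 ± 0.15, adjusted p = 1.04e-05), leu5 (0.90 ± 0.12) and met8 (0.69 ± 0.11). The values of leu5 were -1.30 to -0.27 in the early and -0.62 to 0.092 in the late arrays without P-factor and -1.54 to -0.51 in the early and -0.29 to 0.21 in the late arrays with it, and those of met8 were -1.05 to -0.49 in the early and -0.70 to -0.21 in the late arrays and -1.10 to -0.39 in the early and -0.55 to 0.066 in the late arrays. These increases carried pro3 and met9 only part of the way back, since every P-factor value of both genes lay below 0.

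The early and late arrays separated more often with P-factor. Without P-factor 3 of 66 genes had all 6 late values below all 6 early ones, against 3.55% of all genes, and 1 had them all above, against 6.94%. With P-factor the numbers were 21 of 65, against 7.12%, and 5, against 14.6%. Genes without a value on all 12 arrays were left out of this count. The series without P-factor also lay further apart from each other, and the part of that in this count was not tested.

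**Figure D4:**
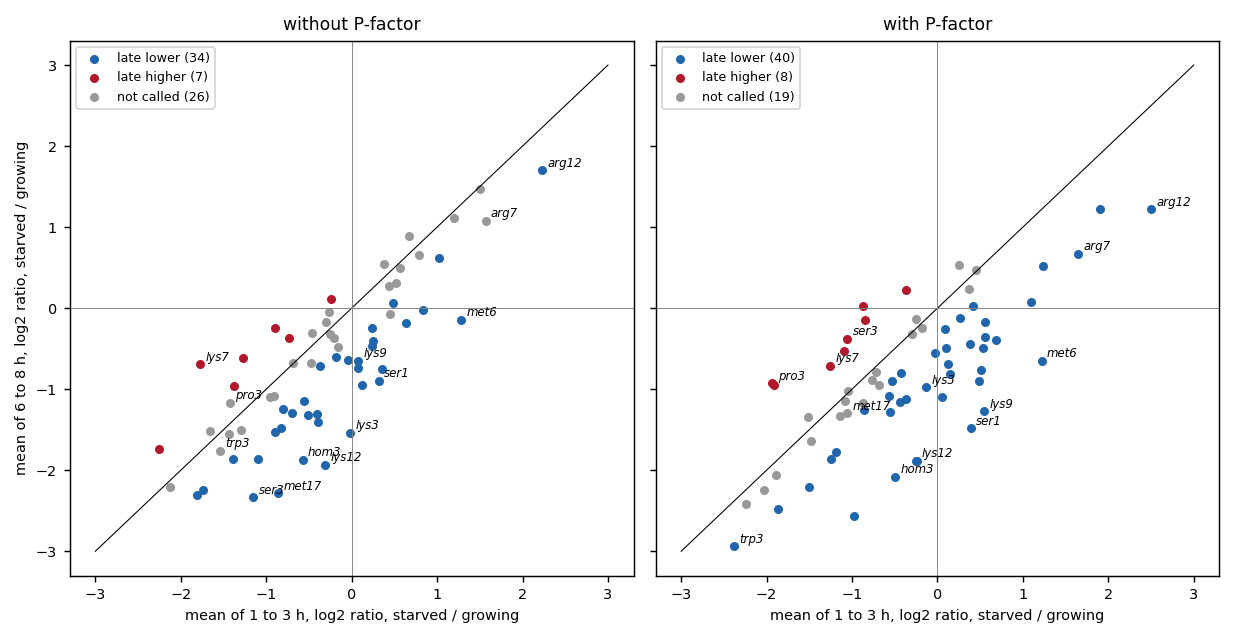
Mean log2 ratio at 6 to 8 h against the mean at 1 to 3 h for the 67 genes, without P-factor on the left and with it on the right, each point the mean of 6 arrays for a gene (5 where a value was missing). The diagonal marks no change; 34 and 40 genes called lower late (blue) lie below it, and 7 and 8 called higher late (red) above it.

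The third comparison asked whether the course differed between the condition with P-factor and that without it. Each ratio is against growing cells of its own strain, so differences between the starved cells and between the growing cells cannot be told apart. Averaged over 1 to 8 h, few amino acid genes differed. One gene, trp3, was called, against 1.21% of all genes lower and 2.12% higher, and it was lower with P-factor by -0.99 ± 0.20 (1.98-fold, adjusted p = 0.00644). By limma 0 genes were called higher, and 2 were higher and 8 lower at an unadjusted p under 0.05. The call of trp3 was lost without replicate 2 of P-factor. The averages of ser3, lys1 and ilv3 differed by 1.05 ± 0.35, adjusted p = 0.113, by -0.66 ± 0.24, adjusted p = 0.15 and by -0.63 ± 0.20, adjusted p = 0.105, none of them called. These averages depended on the series without P-factor. Without its replicate 1, 14 genes were called lower with P-factor, against 3.16% of all genes, and 0 higher, against 3.12%. Without its replicate 2, 5 were called lower and 10 higher, against 11.4% and 14.1% of all genes.

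The course in time differed for more genes. The late minus early change with P-factor minus that without it was called for 15 of the 67: it was negative for 10 (14.9%), against 10.2% of all genes, and positive for 5 (7.46%), against 15.6%. The median over the 67 was -0.15 and that over all genes 0.052. The balance of 10 to 5 depended on the setting: with the deposited values it was 15 to 2, against 14.4% and 11.4% of all genes, and without the series as a block 3 to 0, against 5.15% and 9.04%. It also changed with any series left out, which leaves 1 array for each hour of that condition. The median over the amino acid genes was then -0.054 and -0.187 without replicate 1 and 2 of the condition without P-factor. Over all genes it was 0.088 and 0.017. Without replicate 1 and 2 of P-factor it was -0.115 and -0.189, against 0.042 and 0.079 over all genes. Of the 10 with a negative difference, 5 were arginine genes, and the others were lys1, lys9, ilv3, met14 and ser1. The 5 with a positive difference were ser3, met9, pro3, lys2 and lys3.

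The genes of the first steps of serine synthesis differed in opposite directions. The gene ser3 had the largest difference of the 67, 1.86 ± 0.35 (3.64-fold, adjusted p = 0.000469): its late minus early change was -1.18 ± 0.25 without P-factor and 0.68 ± 0.25 with it. Without P-factor, ser3 read -1.54, -2.11, -2.71, -2.85, -2.89, -2.86, -2.96 and -3.38 in replicate 1, and 0.18, 0.041, -0.78, -1.09, -1.01, -1.54, -2.07 and -1.20 in replicate 2. With P-factor, ser3 read -1.01, -1.67, -1.45, -0.73, -1.01, -0.61, -0.76 and -0.33 in replicate 1, and -0.36, -0.46, -1.41, -0.94, -0.68, -0.33, -0.048 and -0.20 in replicate 2. Both series of a condition moved the same way, and from 6 h on all P-factor values lay above all values without it. Replicate 1 without P-factor was the lower one at every hour. The increase with P-factor alone was no longer called without either P-factor series or with the deposited values. At 7 and 8 h the difference between conditions was 2.12 ± 0.53 and 2.02 ± 0.53. For ser1, the gene of the next step, the change differed by -0.66 ± 0.20, adjusted p = 0.0157 in the other direction, and this call was lost without any series other than replicate 2 of the condition without P-factor.

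Of the lysine genes, lys9 and lys1 went down further with P-factor, by -1.10 ± 0.24 (adjusted p = 0.00202) and -1.05 ± 0.24 (adjusted p = 0.00266). Without P-factor, lys9 read -0.055, -0.16, -0.81, -0.94, -1.01, -1.17, -0.98 and -0.87 in replicate 1, and 0.34, 0.64, 0.48, -0.12, -0.46, -0.43, -0.11 and -0.33 in replicate 2. With P-factor, lys9 read 0.81, 1.22, 0.47, -0.056, -1.15, -1.37, -1.11 and -1.23 in replicate 1, and 0.47, 0.40, -0.082, 0.056, -0.51, -0.94, -1.45 and -1.55 in replicate 2. It stood higher with P-factor at 1 and 2 h and lower at 7 and 8 h in the hourly means, and its call held in every alternative tried. Without P-factor, lys1 read -0.40, -0.18, -1.18, -1.24, -0.85, -1.12, -0.83 and -0.67 in replicate 1, and 0.71, 0.61, 0.19, -0.37, -0.32, -0.85, -0.33 and -0.007 in replicate 2. With P-factor, lys1 read -0.19, -0.054, -0.73, -1.09, -1.82, -2.46, -1.50 and -1.87 in replicate 1, and -0.33, 0.22, -0.37, -0.67, -1.12, -1.67, -1.89 and -1.91 in replicate 2. By 8 h both P-factor values lay near -1.9 and both values without it above -0.7, a difference of -1.55 ± 0.36 (adjusted p = 0.0076). The call of its change was lost without replicate 1 of the condition without P-factor. In the same route lys3 and lys2 differed the other way, by 0.67 ± 0.24, adjusted p = 0.039, and 0.53 ± 0.19, adjusted p = 0.045, and lost the call in 8 and 9 of the alternatives. By series, lys3 changed by -1.15 and -1.89 without P-factor and by -0.98 and -0.70 with it.

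The dihydroxyacid dehydratase gene ilv3 differed by -0.93 ± 0.20 (adjusted p = 0.00196) in the change and by -1.18 ± 0.31 at 7 h and -1.14 ± 0.31 at 8 h. Without P-factor, ilv3 read -1.21, -1.08, -1.59, -1.57, -1.62, -1.68, -1.67 and -1.61 in replicate 1, and -0.53, -0.049, -0.48, -1.34, -1.33, -1.25, -1.40 and -1.26 in replicate 2. With P-factor, ilv3 read -1.45, -0.43, -1.26, -1.97, -2.54, -2.51, -2.51 and -2.51 in replicate 1, and -1.01, -0.73, -1.01, -1.68, -2.22, -2.33, -2.92 and -2.64 in replicate 2. The values of the conditions ran together to 3 h and did not overlap from 4 h on. The call of the change was lost without replicate 1 of the condition without P-factor. The other ilv genes were not called in this comparison, with ilv5 at -0.50 ± 0.21, adjusted p = 0.0853.

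Among the 10 arg genes, which include the kinase gene arg82, 9 went down from early to late with P-factor, against 19.8% of all genes. Without P-factor 5 went down, against 18.3%. The gene arg82 was among the 5 and not among the 9. The median ratio of the 10 was 0.85 at 1 h and 0.65 at 8 h without P-factor, and 0.88 and -0.048 with it. The difference of the changes was called for arg1 (-0.91 ± 0.21, adjusted p = 0.00288), arg12 (-0.76 ± 0.23, adjusted p = 0.0182), arg11 (-0.65 ± 0.16, adjusted p = 0.00444), arg41 (-0.65 ± 0.19, adjusted p = 0.0154) and arg5 (-0.61 ± 0.22, adjusted p = 0.0467). Without P-factor, arg1 read 0.038, -0.032, -0.74, -0.69, -0.56, -0.77, -0.46 and -0.55 in replicate 1, and 0.89, 0.68, 0.60, 0.12, 0.29, -0.18, 0.51 and 0.025 in replicate 2. With P-factor, arg1 read 1.002, 0.79, 0.31, -0.38, -0.54, -0.86, -0.74 and -0.76 in replicate 1, and 0.25, 0.58, -0.025, -0.15, -0.73, -0.86, -1.19 and -1.02 in replicate 2. The P-factor series started above growth and both ended below -0.7. Without P-factor, replicate 1 ended at -0.55 and replicate 2 at the level of growth. The call of arg12 was lost without replicate 2 of the condition without P-factor and without either P-factor series. That of arg5 was lost with any of the 4 series left out, that of arg11 without either series lacking P-factor, and that of arg41 without those and without replicate 1 of P-factor.

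Among the methionine genes, met9 rose with P-factor by 0.97 ± 0.15 and changed by 0.14 ± 0.15, not called, without it, a difference of 0.82 ± 0.21, adjusted p = 0.00557 in the change and of 1.03 ± 0.32 at 8 h (adjusted p = 0.0457). Without P-factor, met9 read -1.73, -1.92, -1.59, -1.63, -1.50, -1.59, -2.17 and -2.03 in replicate 1, and -1.46, -1.95, -1.31, -1.04, -1.09, -0.84, -1.003 and -1.46 in replicate 2. With P-factor, met9 read -1.90, -2.03, -1.31, -0.81, -1.09, -0.90, -0.81 and -0.31 in replicate 1, and -1.90, -2.25, -2.08, -1.42, -1.42, -1.28, -1.23 and -1.12 in replicate 2. The gap opened at 7 and 8 h, where replicate 1 without P-factor held the lowest values of that condition. For met14 the difference was -0.73 ± 0.20, adjusted p = 0.009, with a called rise of 0.52 ± 0.14 without P-factor and a change of -0.21 ± 0.14 with it. For pro3 it was 0.75 ± 0.24, adjusted p = 0.0231, and the values of pro3 were -1.86 to -0.37 in the early and -1.43 to -0.84 in the late arrays without P-factor and -2.43 to -1.28 in the early and -1.14 to -0.72 in the late arrays with it. By series, met9 changed by -0.19 and 0.47 without P-factor and by 1.07 and 0.86 with it. The calls of met9 and met14 were lost without replicate 1 of either condition, and that of pro3 without every series but replicate 1 of P-factor.

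Hour by hour, no amino acid gene differed between the conditions from 1 to 6 h by the limma test. Over all genes the higher calls of these hours came to 0.0831%, 0.0208%, 0%, 0%, 0.748% and 3.47%, and the lower ones to 0.0831%, 0.0416%, 0.0208%, 0.104%, 0.249% and 0.894%. At an unadjusted p under 0.05, between 0 and 3 of the 67 were higher and between 0 and 8 lower in an hour. At 7 h ser3 was higher, against 5.34% of all genes, and ilv3 and trp3 lower, against 1.85%. At 8 h met9 and ser3 were higher, against 6.36%, and ilv3, lys1 and trp3 lower, against 2.54%. The differences of trp3 were -1.27 ± 0.30 at 7 h and -1.41 ± 0.30 at 8 h. With replicate 1 of P-factor left out, no gene was called higher at any hour, and the same held with its replicate 2 left out.

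**Figure D5:**
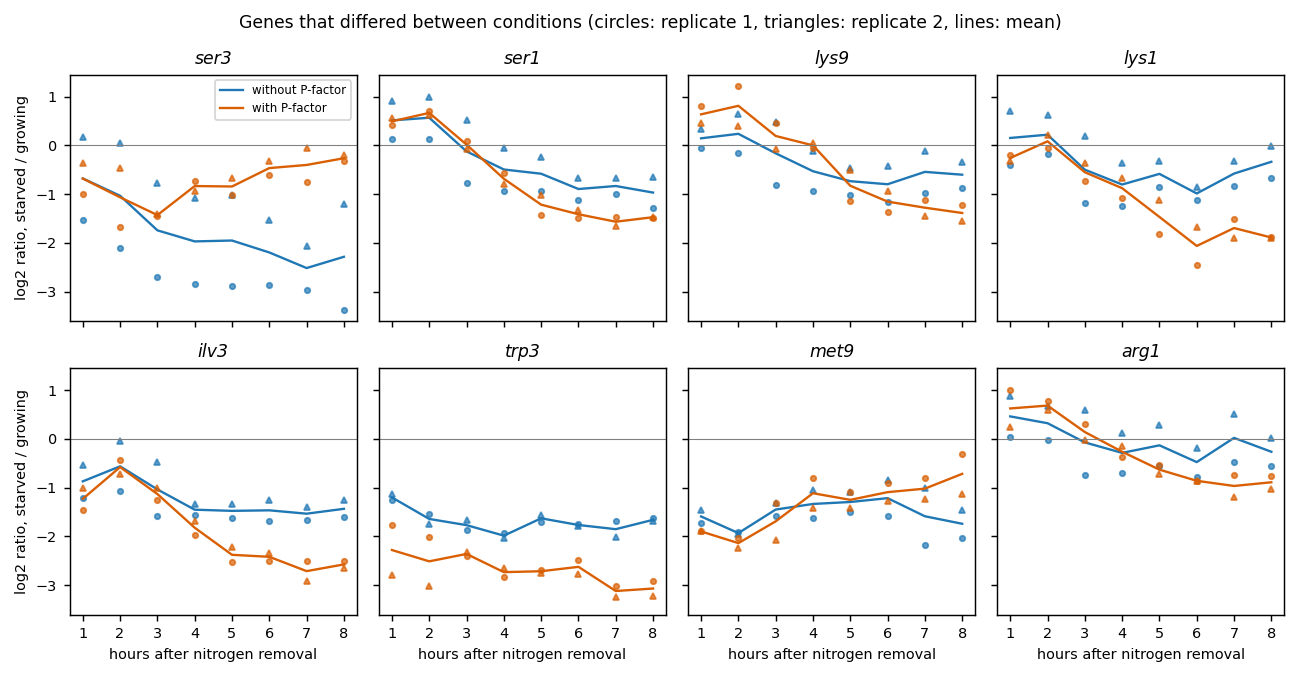
Log2 ratio of starved over growing cells against hours after nitrogen removal for 8 genes whose average or course differed between conditions, without P-factor in blue and with it in orange. Circles are replicate 1, triangles replicate 2 and lines the mean of each hour; the lines of ser3 part upwards with P-factor after 3 h, those of lys9, lys1, ilv3 and arg1 downwards, and trp3 lies lower with P-factor at every hour.

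Other genes of amino acid metabolism, outside the naming rule, were set beside them from a list of 28, of which 21 were measured. Of these, 10 were higher and 8 lower than in growth on average without P-factor, against 33.7% and 35.3% of all genes, and 11 and 7 with it, against 33.9% and 32.8%. The genes through which nitrogen enters were higher: the glutamine synthetase gene gln1 averaged 1.22 ± 0.28 and 1.38 ± 0.28, the NADP-dependent glutamate dehydrogenase gene gdh1 0.78 ± 0.27 and 1.38 ± 0.26, and the glutamate synthase gene glt1 0.62 ± 0.15 and 0.52 ± 0.15. From early to late 9 of the 21 went down, against 18.3% of all genes, and 3 up, against 24%, without P-factor. With it 12 went down, against 19.8%, and 3 up, against 33.7%. Among the 12 was asp1, which encodes an inositol pyrophosphate kinase outside the pathway and changed by -0.56 ± 0.17 (adjusted p = 0.00772). The hourly means of gdh1 fell from 3.33 at 1 h to 0.18 at 8 h without P-factor and from 4.09 to 0.55 with it. The aspartate aminotransferase genes maa1 and caa1 fell from 2.49 to 0.20 and from 1.44 to 0.79 without P-factor, and from 2.63 to -0.74 and from 1.65 to -0.75 with it. These were the 2 genes of the list whose change differed between conditions, by -0.92 ± 0.22 and -1.65 ± 0.20. The arginase gene car1, whose enzyme breaks down the arginine that the arg genes make, fell from 2.87 to -0.25 and from 2.49 to -0.33. The branched-chain aminotransferase gene eca39, which acts after the ilv genes, averaged -1.78 ± 0.15 and -1.58 ± 0.15.

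Of 15 regulators of amino acid synthesis, 7 were higher and 4 lower on average in each condition, against 33.7% and 35.3% of all genes without P-factor and 33.9% and 32.8% with it. The gene fil1 encodes a GATA-type transcription factor known in fission yeast to act on amino acid synthesis genes. Its average was 1.53 ± 0.15 without P-factor and 1.44 ± 0.15 with it, and its hourly mean rose from 0.14 at 1 h to 2.04 at 8 h and from 0.086 to 1.95, while the median of the 67 genes went down. The stress kinase gene hri1 averaged 1.98 ± 0.23 and 2.03 ± 0.23, and gcn2, for the kinase that senses uncharged tRNA, averaged 0.11 ± 0.12 and -0.10 ± 0.12, not called.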

How the data were processed

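Two-colour spotted arrays measured polyA RNA in 32 samples. The authors deposited 1 log ratio per probe, read here as log2, of Cy5 over Cy3, with the dyes given per the labels, and no dye swap. The base of the logarithm, background correction and normalization are not given in the sources used here, and spot intensities were not used. Of 5188 probes, 4868 had 1 gene in the platform annotation, 22 had several and 298 were not listed. Ratios of the same gene were averaged, each array was centred on its median, and genes with values on at least 24 arrays were tested.

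The fit used limma 3.58.1 in R 4.3.3 with 16 group means and the array series as a random block (correlation 0.354, 16 residual and 6.32 prior degrees of freedom). Within each comparison the Benjamini-Hochberg adjustment ran over all genes, with a threshold of 0.05. Figures were drawn with matplotlib 3.10.9 in Python 3.11.15. By rule, array values are given for the 4 called genes that changed most, up and down, in each comparison, and each prefix is described with its gene of largest average. Members, gene lists and windows were chosen with earlier results of these data known. Alternatives were other centring, no block or a fixed series term, robust variances, complete genes, other windows and each series left out. Another, chosen after seeing the data, left out the 4 genes with functions outside amino acid synthesis and kept 63. Promoter motifs were not searched.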

Additional observations from a re-analysis of the deposited data

Results flagged for a closer look

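The results below are differences between the conditions that passed the limma test of the difference itself, each with its standard error and adjusted p. Averaged over 1 to 8 h this was trp3, at -0.99 ± 0.20 (adjusted p = 0.00644). In the comparison of late minus early changes, the negative values were those of lys9 at -1.10 ± 0.24 (adjusted p = 0.00202), lys1 at -1.05 ± 0.24 (adjusted p = 0.00266), ilv3 at -0.93 ± 0.20 (adjusted p = 0.00196), arg1 at -0.91 ± 0.21 (adjusted p = 0.00288) and arg12 at -0.76 ± 0.23 (adjusted p = 0.0182). Smaller negative differences were those of met14 at -0.73, ser1 at -0.66, arg11 at -0.65, arg41 at -0.65 and arg5 at -0.61, with adjusted p from 0.00444 (arg11) to 0.0467 (arg5). The positive values were ser3 at 1.86 ± 0.35 (adjusted p = 0.000469), met9 at 0.82 (adjusted p = 0.00557), pro3 at 0.75 (adjusted p = 0.0231), lys3 at 0.67 (adjusted p = 0.039) and lys2 at 0.53 (adjusted p = 0.045). At 7 h ser3 differed by 2.12, ilv3 by -1.18 and trp3 by -1.27, with adjusted p of 0.0158, 0.0214 and 0.0108. At 8 h ser3 differed by 2.02, met9 by 1.03, ilv3 by -1.14, trp3 by -1.41 and lys1 by -1.55, with adjusted p of 0.0169, 0.0457, 0.0222, 0.00387 and 0.0076.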

How the results depend on the processing

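Of 208 called gene results, 119 kept the call and its direction under every alternative in which they could be computed. The genes arg4, met1 and trp4, each lacking 1 array value, dropped out where complete genes were required. With replicate 2 of P-factor left out, the P-factor results of arg4 and trp4 could not be computed. Of the 208 results, 89 lost the call under at least 1 alternative, and 2 changed sign. Those 2 were the averages without P-factor of ser1 and trp2, which ranged from -0.72 to 0.018 and from -0.78 to 0.016 with a series left out, the upper value without replicate 1 of that condition. No paired analysis was possible because the labels pair no array of one condition with one of the other. With the array series as a fixed term within each condition, 7 genes were higher and 34 lower late without P-factor, against 24.7% and 18.7% of all genes. With P-factor they numbered 8 and 41, against 34.5% and 20.6%. The difference of changes was positive for 6 and negative for 11, against 16.9% and 10.7%.

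With the deposited values, the difference of changes was positive for 2 genes in place of 5, and genes lower with P-factor, summed over hours, numbered 9 in place of 5. Over all genes that difference then split into 549 higher and 694 lower, in place of 752 and 489, with a median of -0.075 in place of 0.052. With scaled arrays the 2 counts were 3 and 8, the first against 16.1% of all genes. Without the series as a block, 22 genes in place of 34 were lower late without P-factor, against 11.6% of all genes. On average 2 were then higher and 10 lower with P-factor, against 15.6% and 14.7% of all genes. The difference of changes was positive for 0 and negative for 3, against 9.04% and 5.15%, and 0 were higher with P-factor at any hour. With 1 and 2 h against 7 and 8 h, 2 had a positive difference of changes, against 11.3% of all genes. With 2 and 3 h against 6 and 7 h, 2 were positive and 6 negative, against 9.19% and 4.12%.

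Leaving out each series in turn gave 4 to 10 genes with a higher average with P-factor. Without P-factor 2 to 7 were higher and 16 to 34 lower late, and higher calls over all hours ranged from 40 to 82. With P-factor higher calls over all hours ranged from 27 to 63. Averaged differences between conditions were positive for 0 to 10 genes and negative for 0 to 14. Differences of changes were positive for 2 or 3 and negative for 3 to 9. Hourly differences were positive for 0 to 7 and negative for 1 to 9. The lowest late count came without replicate 2 and the 14 without replicate 1 of the condition without P-factor. The lowest number of higher hourly calls without P-factor came without its replicate 2, and that with P-factor without its replicate 1. For averages and changes the calls over all genes also moved with the series left out, so these ranges alone do not set the amino acid genes apart. The median averaged difference over the amino acid genes was -0.22 and 0.099 without replicate 1 and 2 of the condition without P-factor. Over all genes it was -0.027 and 0.02. Without replicate 1 and 2 of P-factor the amino acid median was -0.128 and -0.059, against -0.018 and 0.004 over all genes. The cause of these shifts was not tested, beyond the fewer arrays when a series is left out. The number of arrays, 2 for each hour, limits the precision, and signal over background is not known from log ratios.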
